A study of Rattus norvegicus with 9 samples.

Results

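The lysosomal hydrolases and membrane proteins of the rat spinal cord were described across the Sham, SCI and SCI + SCS groups. They are 41 genes fixed by name. They comprise peptidases, glycosidases, sulfatases, lipid hydrolases, membrane proteins, subunits of the proton pump and a pair of transcription factors, TFEB and TFE3. Of the 41, 40 were found by symbol among the 30507 rows of the files, and Glb1 was not analysed here. All 40 passed the filter on low counts in each of the 3 comparisons. Where a symbol stood on more than 1 row, as Mcoln1 did, the row with the highest total count was used.

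Each group held 3 rats, all female wild-type Sprague-Dawley animals that were 8 weeks old at the start, and RNA was taken from the cord at the injury site at 35 dpi. The Sham rats had a laminectomy alone according to the study's methods, while their labels give no treatment. The SCI rats had a contusion at T10 and carried a connector plug without an electrode. The SCI + SCS rats had the same contusion, an epidural electrode caudal to it and high-frequency stimulation at 10 kHz for 2 h per day from 1 dpi (HF-SCS), so that the electrode and the current cannot be told apart between these groups. The rats with an electrode and no current were not analysed here. All libraries share 1 batch label. The tissue was whole cord, in which fewer cells of a type and less RNA per cell cannot be told apart. Library totals lay between 62844376 and 88358570 counts. In the SCI group, 10 skeletal muscle markers summed to 3949 CPM (counts per 1000000) in replicate 1 and 1092 CPM in replicate 3 but 27.6 CPM in replicate 2, against 40.2 to 136 CPM in the other 6 libraries. The 6 adipocyte markers summed to 3.24 to 9.56 CPM in the Sham libraries, 88.4 to 116 CPM in the SCI libraries and 27.2 to 43.7 CPM in the SCI + SCS libraries. With the muscle and adipocyte genes removed before normalization, the number of lysosomal genes that passed the test was the same in all 3 comparisons. That removal leaves any lysosomal transcripts of such tissue in place, and the part of such tissue in the lysosomal levels was not tested.

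Lysosomes are acidic organelles in which hydrolases break down proteins, glycans and lipids delivered by endocytosis, phagocytosis and autophagy. The vacuolar proton pump (V-ATPase) keeps the lumen acidic, most soluble hydrolases reach it through mannose 6-phosphate receptors, and heavily glycosylated proteins such as LAMP1 and LAMP2 line its membrane. TFEB and TFE3 activate many lysosomal genes through the CLEAR element, a motif built around the hexamer CACGTG. In the injured spinal cord, microglia and infiltrating macrophages take up myelin and cell debris into lysosomes, and inherited loss of several of these hydrolases causes storage of their substrates in the nervous system.

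Both transcription factors rose after injury. Tfeb was at 26.9, 31.2 and 33.5 CPM in the Sham rats, 55.6, 51.6 and 45.5 CPM in the SCI rats and 51.0, 46.2 and 44.3 CPM in the SCI + SCS rats, and the Sham and SCI libraries did not overlap (log2FC 0.72 ± 0.12 (SE), adjusted p = 0.00454). Tfe3 was at 27.6, 29.6 and 31.3 CPM in the Sham rats, 36.6, 38.2 and 36.8 CPM in the SCI rats and 35.6, 35.9 and 30.8 CPM in the SCI + SCS rats and also rose in the SCI group (log2FC 0.32 ± 0.087 (SE), adjusted p = 0.0231). This call of Tfe3 was lost on the log2(FPKM + 1) scale (limma, adjusted p = 0.0884) and without any 1 of 4 libraries. Neither gene differed past the threshold between the SCI + SCS and SCI groups, with 95% intervals of the log2FC of -0.34 to 0.14 for Tfeb and -0.32 to 0.091 for Tfe3. Against the Sham group, Tfeb was higher in the SCI + SCS group (log2FC 0.63 ± 0.11 (SE), adjusted p = 0.00974) and Tfe3 did not pass (log2FC 0.21 ± 0.096 (SE), adjusted p = 0.129). This call of Tfeb was lost when replicate number was blocked (edgeR, adjusted p = 0.0636). Libraries of the same number share only that number, and with this block the calls over all rows went from 5710 to 1259.

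Promoter sequences from 250 bases before to 50 bases after the start site (RefSeq, build GRCr8) were matched for 32 of the 40 genes. The hexamer CACGTG, which reads the same on both strands, was in 9 of the 32 (28.1%), against 6.42% of all 33469 promoters of that length. TCACGTGA, which contains it, was in 6 of the 32 (18.8%), against 0.777% of all promoters. The form of 10 bases with a further G before and C after it was in 1 of the 32 (3.13%), against 0.233% of all promoters. Among the promoters of 86 other lysosomal genes, from the lists given below, CACGTG was in 17.4%, TCACGTGA in 5.81% and the form of 10 bases in 3.49%. Of the 9 genes with CACGTG, Ctsd, Idua and Cln3 rose after injury and Ctsf and Mcoln1 fell. Gaa, Galc, Lamp1 and Atp6v0d1 did not pass the test. Of the 23 without it, 15 rose, 5 fell and 3 did not pass. Over all 17822 rows, 24.3% rose and 25% fell. The 3 and 2 of 9, and the 5 of 23, lay near those shares. The genes with and without the hexamer were not tested against each other. The stretches before the start site of 5 genes with TCACGTGA are shown because they hold the motif in genes that rose (Ctsd, Cln3) and in genes that did not pass (Lamp1, Atp6v0d1, Galc). The remaining gene with TCACGTGA, Mcoln1, fell. It is not shown because its copy lies after the start site. Capitals mark CACGTG, or TCACGTGA where it is complete.
Ctsd, chr1:206968822-206968998, minus strand: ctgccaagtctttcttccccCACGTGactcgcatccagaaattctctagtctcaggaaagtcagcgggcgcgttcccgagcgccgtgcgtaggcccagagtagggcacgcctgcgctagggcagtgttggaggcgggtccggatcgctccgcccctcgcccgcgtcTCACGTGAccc
Cln3, chr1:190597942-190598015, minus strand: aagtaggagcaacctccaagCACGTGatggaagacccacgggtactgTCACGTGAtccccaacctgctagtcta
Lamp1, chr16:83075076-83075266, minus strand: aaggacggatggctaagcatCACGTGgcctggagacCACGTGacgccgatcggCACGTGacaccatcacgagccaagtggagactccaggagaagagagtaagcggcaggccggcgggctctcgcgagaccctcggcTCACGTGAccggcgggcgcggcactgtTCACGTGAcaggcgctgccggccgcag
Atp6v0d1, chr19:50357275-50357320, minus strand: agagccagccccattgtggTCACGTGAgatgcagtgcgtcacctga
Galc, chr6:123245560-123245599, minus strand: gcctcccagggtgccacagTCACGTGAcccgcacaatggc
The stretch of Lamp1 holds 5 copies of CACGTG, those of Ctsd and Cln3 hold 2 each, and those of Atp6v0d1 and Galc hold 1 each. A match describes the letters of a window and does not show that a factor binds there.

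Levels were compared between genes as FPKM, which are scaled by length. In the Sham group the order was led by Psap, which encodes the precursor of the saposins that help sphingolipid hydrolases, at 581 ± 6.24 FPKM (mean ± SD, n = 3). It was followed by Lamp1 (259 ± 22.8 FPKM), Ctsb (240.0 ± 42.7 FPKM), Ctss (174 ± 31.3 FPKM) and Ctsd (171 ± 10.1 FPKM). Lamp1 and Ctsb lay within their spread of each other, as did Ctss and Ctsd. In the SCI group Ctsb came first at 880.4 ± 162 FPKM, ahead of Psap at 651 ± 69.8 FPKM and Ctsd at 579 ± 123 FPKM. In the SCI + SCS group the first 5 genes stood in the order of the SCI group, with Ctsb at 714 ± 49.7 FPKM and Psap at 601 ± 27.1 FPKM. Ctse was the lowest of the 40 in every group, at 1.35 ± 0.589 FPKM in the Sham group. As a share of the counts of all 40 genes, Ctsb took 6.04 to 7.95% in the Sham libraries, 14.2 to 15.5% in the SCI libraries and 12.8 to 14.0% in the SCI + SCS libraries. The share of Psap was 22 to 24.2% in the Sham libraries and 14.8 to 16.8% over the other 6.

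**Figure D1:**
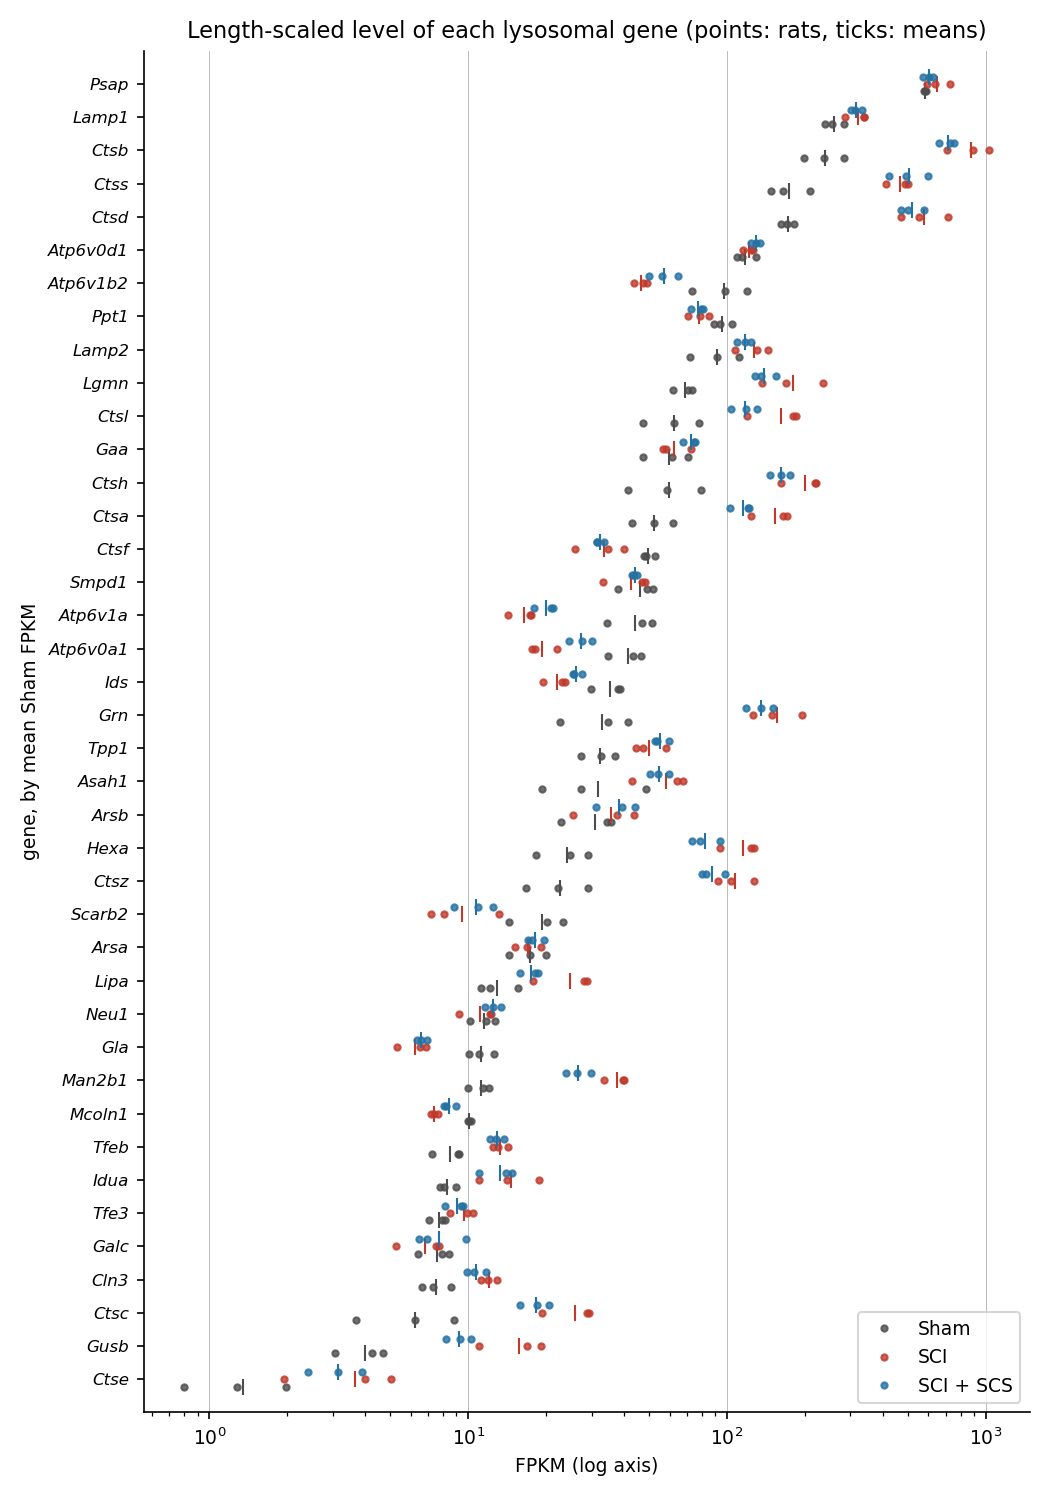
FPKM of each of the 40 genes (log axis) in each of the 9 rats, as points colored by group, with ticks at the group means and genes ordered by their mean in the Sham group. Ctsb moves from 240 FPKM in the Sham group to 880 FPKM in the SCI group, while Psap stays between 581 and 651 FPKM.

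SCI was compared with Sham to see which lysosomal genes differed at the injury site at 35 dpi. Of the 40 genes, 21 rose and 8 fell (adjusted p under 0.05), against 24.3% and 25% of all 17822 rows tested that were higher and lower. With |log2FC| above 1 added, 15 rose and 3 fell, against 13.4% and 13.6% of all rows. The SCI libraries were all above the Sham libraries for 22 genes and all below them for 9, against 32.5% and 31.1% of all rows. By DESeq2, 22 were called higher and 9 lower, against 25.2% and 25.1% of the rows to which it gave an adjusted p. The median log2FC was 0.47 over the 40 genes and 0.015 over all rows. The 40 genes together took 0.755 to 0.825% of a library's counts in the Sham group and 1.19 to 1.53% in the SCI group. Leaving out each library in turn, 23 to 28 genes passed, beside 6091 to 8363 of all rows, and 23 of the 29 passed every time. The other 6, which lost the call without at least 1 library, were Asah1, Ctse, Ids, Mcoln1, Scarb2 and Tfe3.

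**Figure D2:**
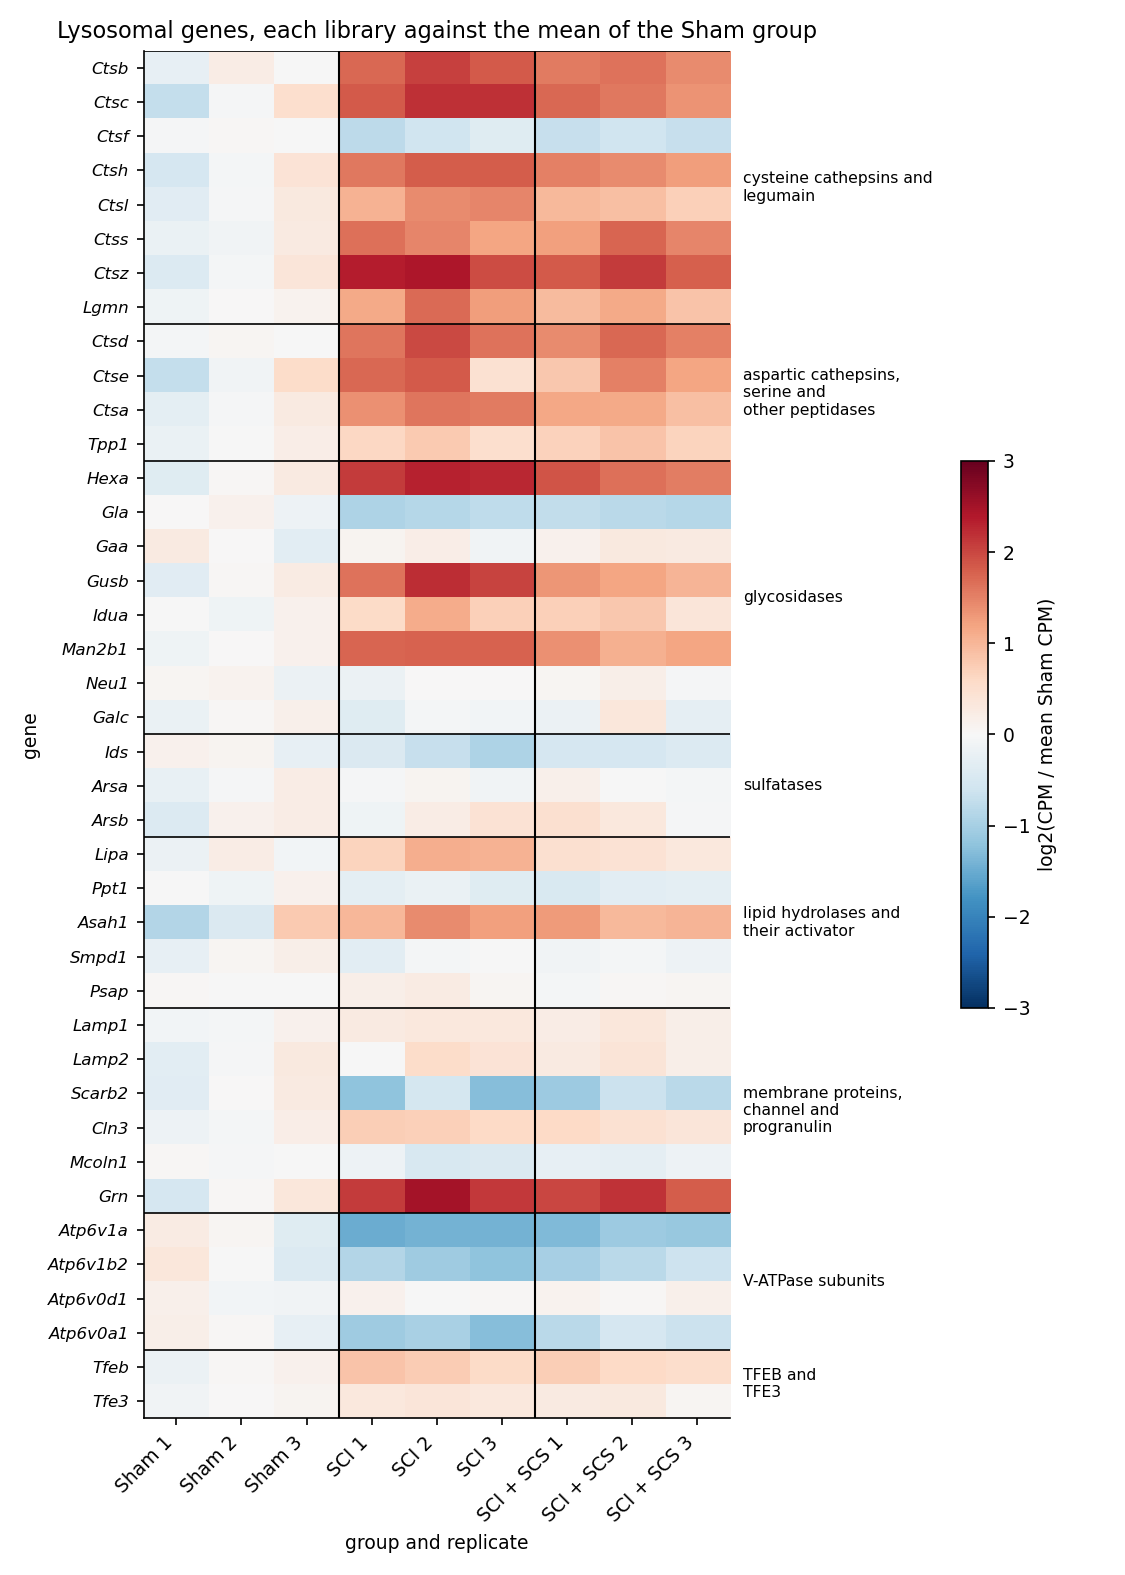
Heatmap of log2(CPM / mean Sham CPM) for the 40 genes (rows, by role) in the 9 libraries (columns, by group and replicate), red above and blue below the Sham mean. Most cathepsins, Hexa, Gusb, Man2b1 and Grn are red in all 6 injured libraries, while Ctsf, Gla, Scarb2, Atp6v1a, Atp6v1b2 and Atp6v0a1 are blue in all 6.

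Among the 8 cysteine cathepsins and legumain, 7 rose and 1, Ctsf, fell. Ctsb, a broad cysteine protease (mRatBN7.2 chr15:37389629-37410500, + strand), was at 471, 643 and 549.8 CPM in the Sham rats, 1833, 2279.8 and 1986 CPM in the SCI rats and 1643, 1709 and 1481 CPM in the SCI + SCS rats. Every SCI library lay above every Sham library (log2FC 1.86 ± 0.17 (SE), adjusted p = 0.00121). Ctsz, a carboxypeptidase (mRatBN7.2 chr3:163224875-163235645, - strand), had the largest increase of the 40 genes, at 28.9, 36.7 and 49.2 CPM in the Sham rats, 196, 205 and 149 CPM in the SCI rats and 136, 163 and 132 CPM in the SCI + SCS rats (log2FC 2.24 ± 0.23 (SE), adjusted p = 0.0014). Ctsc, the peptidase that activates serine proteases of immune cell granules, was the lowest of the 7 in the Sham group at 11.1, 18 and 25.8 CPM and reached 65.2, 83.6 and 83.5 CPM in the SCI group (log2FC 2.07 ± 0.30 (SE), adjusted p = 0.00283). Ctss, which trims the invariant chain of MHC class II, was at 269.9, 287 and 375 CPM in the Sham rats, 971, 853 and 708 CPM in the SCI rats and 733, 1046 and 856 CPM in the SCI + SCS rats. The SCI and SCI + SCS libraries of Ctss overlapped, and both groups lay above the Sham group (log2FC 1.43 ± 0.18 (SE), adjusted p = 0.00209 for SCI). Ctsh, an aminopeptidase, Ctsl, an endopeptidase, and Lgmn, the asparaginyl endopeptidase that processes cathepsins, rose with log2FC of 1.73, 1.30 and 1.37. Ctsf, another cysteine cathepsin, was at 116, 122 and 117 CPM in the Sham rats, 68.3, 78.6 and 91.6 CPM in the SCI rats and 73.1, 78.2 and 73.1 CPM in the SCI + SCS rats, with every SCI library below every Sham library (log2FC -0.59 ± 0.12 (SE), adjusted p = 0.009).

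The 4 aspartic, serine and other peptidases all rose. Ctsd, the main aspartic protease of lysosomes (mRatBN7.2 chr1:197527467-197539488, - strand), was at 437, 469.7 and 452 CPM in the Sham rats, 1389, 1796 and 1404 CPM in the SCI rats and 1210.2, 1499.5 and 1293 CPM in the SCI + SCS rats (log2FC 1.74 ± 0.15 (SE), adjusted p = 0.00112). The Sham libraries of Ctsd lay close together and far below the rest. Ctsa, a serine carboxypeptidase that also protects neuraminidase from degradation, rose from 207, 247 and 302 CPM to 654, 762 and 739 CPM (log2FC 1.5 ± 0.16 (SE), adjusted p = 0.0015). Its span overlaps that of Pltp on the opposite strand, whose counts were 76.7% of those of Ctsa, and the strand setting of the counting is not given in the sources used here. Tpp1, the tripeptidyl peptidase lost in a form of Batten disease, rose less (log2FC 0.62 ± 0.14 (SE), adjusted p = 0.0108). Ctse, an aspartic protease of endosomes, was at 1.99, 3.03 and 4.82 CPM in the Sham rats, 10.8, 11.7 and 4.53 CPM in the SCI rats and 5.71, 9.29 and 7.40 CPM in the SCI + SCS rats. One SCI library of Ctse lay within the Sham range, and its call (log2FC 1.44 ± 0.46 (SE), adjusted p = 0.0374) was lost when replicate number was blocked (adjusted p = 0.0918) and without any 1 of 4 libraries.

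Of the 8 glycosidases, 4 rose, 1 fell and Gaa, Neu1 and Galc did not pass. Hexa, the α subunit of β-hexosaminidase, which degrades GM2 ganglioside (mRatBN7.2 chr8:59936660-59962013, + strand), was at 52.2, 68.8 and 81.4 CPM in the Sham rats, 287, 333 and 325 CPM in the SCI rats and 249.7, 213 and 196 CPM in the SCI + SCS rats. The 3 groups did not overlap for Hexa, the Sham group being the lowest and the SCI group the highest (log2FC 2.21 ± 0.18 (SE), adjusted p = 0.00105 for SCI against Sham). Gusb, the β-glucuronidase of glycosaminoglycan breakdown (mRatBN7.2 chr12:26697951-26714705, + strand), was at 9.29, 12.1 and 13.8 CPM in the Sham rats, 36.4, 54.1 and 47.8 CPM in the SCI rats and 29.1, 26.6 and 23.7 CPM in the SCI + SCS rats, again with no overlap between groups (log2FC 1.96 ± 0.20 (SE), adjusted p = 0.00143). Man2b1, the α-mannosidase of glycoprotein breakdown (mRatBN7.2 chr19:23055097-23074389, - strand), was at 40.5, 44.4 and 48.1 CPM in the Sham rats, 148, 151 and 151 CPM in the SCI rats and 115, 92.4 and 101 CPM in the SCI + SCS rats. Its SCI libraries were nearly equal, and it had the smallest adjusted p of the 40 genes (log2FC 1.74 ± 0.096 (SE), adjusted p = 0.000783). Idua, the iduronidase of heparan and dermatan sulfate breakdown, rose less (log2FC 0.80 ± 0.16 (SE), adjusted p = 0.00827). Gla, the α-galactosidase A whose loss causes Fabry disease, was at 33.6, 36.7 and 30.2 CPM in the Sham rats, 17.7, 18.6 and 19.7 CPM in the SCI rats and 20.1, 19.2 and 18.4 CPM in the SCI + SCS rats, with every injured library below every Sham library (log2FC -0.87 ± 0.11 (SE), adjusted p = 0.00214).

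Among the 3 sulfatases, Ids, the iduronate sulfatase that acts beside Idua on the same glycans, fell (log2FC -0.68 ± 0.17 (SE), adjusted p = 0.0162), and Arsa and Arsb did not pass. The levels of Ids were 176, 172 and 137 CPM in the Sham rats, 120.2, 101 and 85.4 CPM in the SCI rats and 114, 113 and 123 CPM in the SCI + SCS rats. Of the 5 lipid hydrolases and activator genes, 2 rose. Lipa, the acid lipase that frees cholesterol from its esters, was at 41.9, 55.2 and 44.4 CPM in the Sham rats, 75.3, 100.3 and 97.0 CPM in the SCI rats and 65.9, 64.2 and 58.5 CPM in the SCI + SCS rats (log2FC 0.93 ± 0.16 (SE), adjusted p = 0.00471). The SCI libraries of Lipa lay above all others. Asah1, acid ceramidase, was at 36.8, 49.7 and 116 CPM in the Sham rats, 135, 179 and 159 CPM in the SCI rats and 162, 132 and 137 CPM in the SCI + SCS rats. Its Sham libraries spread more than 3-fold, and its call (log2FC 1.22 ± 0.41 (SE), adjusted p = 0.0468) was lost on the log2(FPKM + 1) scale (limma, adjusted p = 0.0524), with no filter on low counts (adjusted p = 0.0536) and without any 1 of 5 libraries. Ppt1, which removes palmitate from proteins, did not pass (log2FC -0.30 ± 0.11 (SE), adjusted p = 0.0527), though DESeq2 called it lower (adjusted p = 0.0219). Psap was at 1888, 1831 and 1843 CPM in the Sham rats, 2095, 2209 and 1933 CPM in the SCI rats and 1775, 1889 and 1938 CPM in the SCI + SCS rats and did not pass (log2FC 0.15 ± 0.13 (SE), adjusted p = 0.365), nor did Smpd1, the acid sphingomyelinase.

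The 6 membrane proteins, the channel and progranulin split into 2 that rose, 2 that fell and 2 that did not pass. Grn, which encodes progranulin, a secreted protein that is taken into lysosomes and processed there (mRatBN7.2 chr10:87387638-87393775, + strand), was at 63, 92.8 and 114 CPM in the Sham rats, 383, 507 and 391 CPM in the SCI rats and 361, 403 and 317 CPM in the SCI + SCS rats. Injured and Sham libraries of Grn did not overlap, and its fitted level was 4.7-fold higher in the SCI group (log2FC 2.23 ± 0.24 (SE), adjusted p = 0.00151). Cln3, a membrane protein lost in juvenile Batten disease, rose (log2FC 0.67 ± 0.12 (SE), adjusted p = 0.00534). Scarb2, which carries glucocerebrosidase to lysosomes, was at 39.2, 50 and 59.5 CPM in the Sham rats, 21.5, 34.3 and 20.4 CPM in the SCI rats and 23.1, 31.5 and 28.1 CPM in the SCI + SCS rats and fell in the SCI group (log2FC -0.98 ± 0.25 (SE), adjusted p = 0.0172). Mcoln1, the calcium channel TRPML1, was at 86.4, 81.1 and 83.7 CPM in the Sham rats, 75.4, 60.3 and 62.3 CPM in the SCI rats and 70.8, 69.2 and 75.2 CPM in the SCI + SCS rats and fell slightly (log2FC -0.36 ± 0.11 (SE), adjusted p = 0.0373). This call of Mcoln1 was lost without any 1 of 5 libraries. A lower-count row of the same Mcoln1 identifier held 5.24 to 13.2 CPM in the SCI libraries, 8.60 to 15.5 CPM in the Sham libraries and 3.79 to 7.17 CPM in the SCI + SCS libraries. Lamp1, at 803, 815 and 938 CPM in the Sham rats, 1033, 1057 and 1068 CPM in the SCI rats and 996, 1080.0 and 969 CPM in the SCI + SCS rats, did not pass (log2FC 0.29 ± 0.11 (SE), adjusted p = 0.0741), although the Sham and SCI libraries did not overlap and DESeq2 called it higher (adjusted p = 0.0159). Lamp2 did not pass either (log2FC 0.32 ± 0.20 (SE), adjusted p = 0.226). Over the 11 genes that did not pass, the log2FC lay between -0.30 and 0.32.

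Of the 4 V-ATPase subunits, 3 fell and none rose. Atp6v1a, the catalytic subunit of the cytosolic domain (mRatBN7.2 chr11:56560974-56614694, + strand), was at 278, 245 and 184 CPM in the Sham rats, 84.2, 88.6 and 88.3 CPM in the SCI rats and 94.4, 111 and 108 CPM in the SCI + SCS rats. Its injured libraries all lay below the Sham libraries, and its fitted level was 2.74-fold higher in the Sham group (log2FC -1.46 ± 0.17 (SE), adjusted p = 0.00172). Atp6v1b2, the other subunit of the ATP-binding ring, was at 426, 334 and 257 CPM in the Sham rats, 184, 163 and 146 CPM in the SCI rats and 170.2, 193 and 220.4 CPM in the SCI + SCS rats (log2FC -1.07 ± 0.21 (SE), adjusted p = 0.00682). Atp6v0a1, the large membrane subunit that is abundant in neurons (mRatBN7.2 chr10:85935854-85989895, + strand), was at 237, 213 and 175 CPM in the Sham rats, 98.6, 105 and 86.5 CPM in the SCI rats and 119, 147 and 134 CPM in the SCI + SCS rats. It fell in the SCI group (log2FC -1.12 ± 0.15 (SE), adjusted p = 0.00236), and its 3 groups did not overlap. Atp6v0d1, a subunit at the base of the rotor, was at 324, 274 and 268 CPM in the Sham rats, 314, 288 and 296 CPM in the SCI rats and 309, 296 and 319 CPM in the SCI + SCS rats, with Sham and SCI libraries interleaved (log2FC 0.032 ± 0.12 (SE), adjusted p = 0.83). All 12 neuronal markers (Snap25, Syt1 and others) fell as well, against 25% of all rows. Their summed levels were 5070 to 11216 CPM in the Sham group, 774 to 2605 CPM in the SCI group and 2360 to 3951 CPM in the SCI + SCS group. Their part in the lower V-ATPase levels was not tested.

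SCI + SCS was compared with SCI to ask whether lysosomal genes differed after HF-SCS. By edgeR none of the 40 genes passed at an adjusted p under 0.05, and over all 17663 rows 0.00566% were called higher and 0% lower. At an unadjusted p under 0.05, the stimulated rats had 10 lower and 2 higher genes, against 10.9% and 13.3% of all rows. By DESeq2, 9 were lower and 1 higher at an adjusted p under 0.05, against 6.9% and 8.83% of the 16503 rows to which it gave an adjusted p. The SCI + SCS libraries were all below the SCI libraries for 12 genes and all above for 2, against 13.9% and 15.6% of all rows. The median log2FC was -0.09 over the 40 genes and -0.0055 over all rows. The 40 genes took 1.18 to 1.28% of a library's counts in the SCI + SCS group, which overlapped the range of the SCI group.

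The smallest adjusted p-values of this comparison belonged to Man2b1 (log2FC -0.53 ± 0.099 (SE), adjusted p = 0.0773) and Gusb (log2FC -0.79 ± 0.16 (SE), adjusted p = 0.0782). For Gusb the 95% interval of the log2FC was -1.16 to -0.42, and its SCI + SCS libraries at 29.1, 26.6 and 23.7 CPM all lay below its SCI libraries at 36.4, 54.1 and 47.8 CPM. Hexa (log2FC -0.51 ± 0.12 (SE), adjusted p = 0.0885) and Lipa (log2FC -0.52 ± 0.12 (SE), adjusted p = 0.091) showed the same lack of overlap. Among the peptidases the values were log2FC -0.52 for Ctsc, -0.44 for Ctsl, -0.43 for Ctsa, -0.39 for Lgmn, -0.34 for Ctsh and -0.33 for Ctsb, with adjusted p-values from 0.1 to 0.204. These 10 genes are those that were lower in stimulated rats at an unadjusted p under 0.05, and DESeq2 called all of them but Lgmn, with adjusted p-values from 0.000101 (Man2b1) to 0.0468 (Ctsb). All 10 had risen after injury, and since both comparisons use the SCI libraries the values are given side by side and not tested against each other.

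Other members with large increases after injury did not pass at an unadjusted p under 0.05 in this comparison. Ctss had a log2FC of 0.067 (95% interval -0.34 to 0.48), Ctsd of -0.19 (-0.54 to 0.16) and Grn of -0.24 (-0.58 to 0.11). The value of Ctsz was -0.34, with libraries that overlapped (-0.69 to 0.0099). The V-ATPase subunits Atp6v0a1 (log2FC 0.47 ± 0.12 (SE), adjusted p = 0.0938) and Atp6v1a (log2FC 0.27 ± 0.09 (SE), adjusted p = 0.137) were higher in each SCI + SCS library than in any SCI library, and DESeq2 called Atp6v0a1 (adjusted p = 0.00928) and not Atp6v1a (adjusted p = 0.0754). Over all 40 genes the 95% intervals of the log2FC lay between -1.16 (Gusb) and 0.75 (Atp6v0a1).

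**Figure D3:**
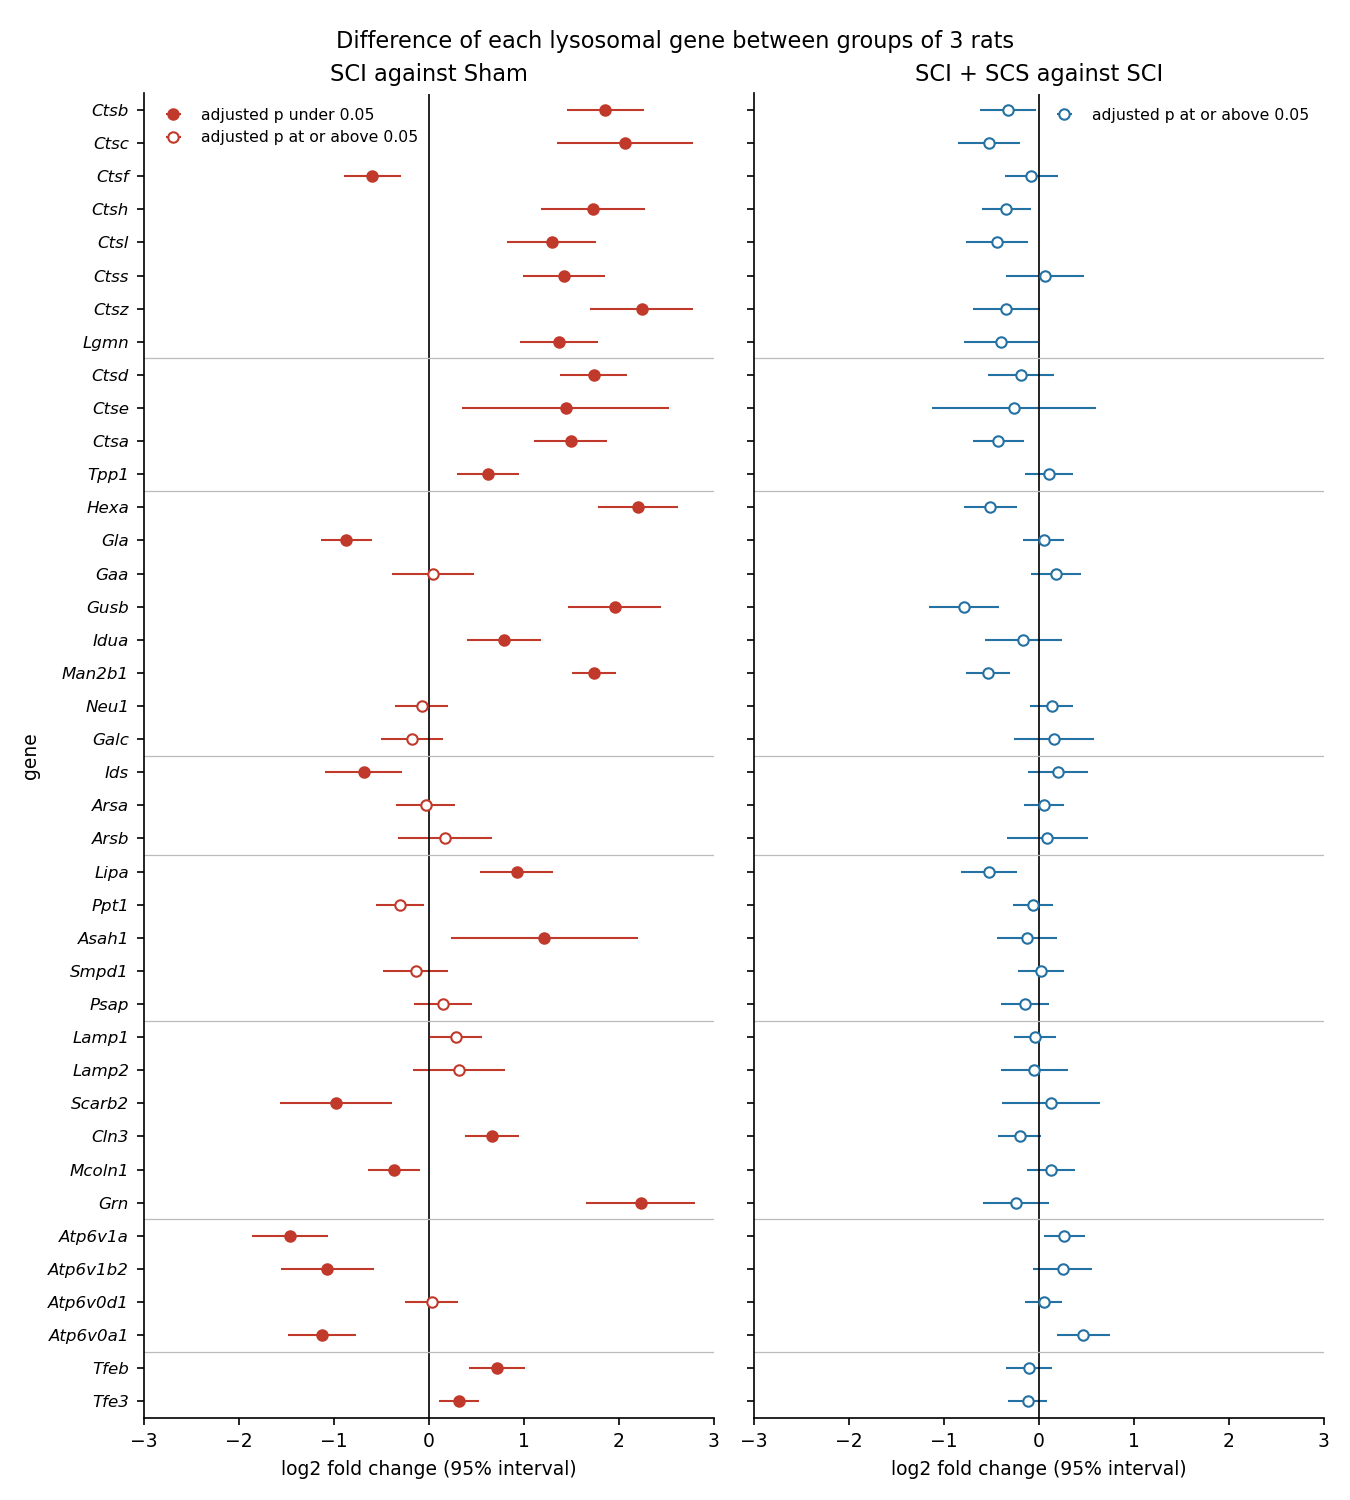
Log2 fold change of the 40 genes, grouped by role, for SCI against Sham (left) and SCI + SCS against SCI (right), as points with 95% intervals from 3 rats per group and filled where the adjusted p is under 0.05. On the left 29 points are filled, from -1.46 (Atp6v1a) to 2.24 (Ctsz), and on the right none is, with values from -0.79 (Gusb) to 0.47 (Atp6v0a1).

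**Figure D4:**
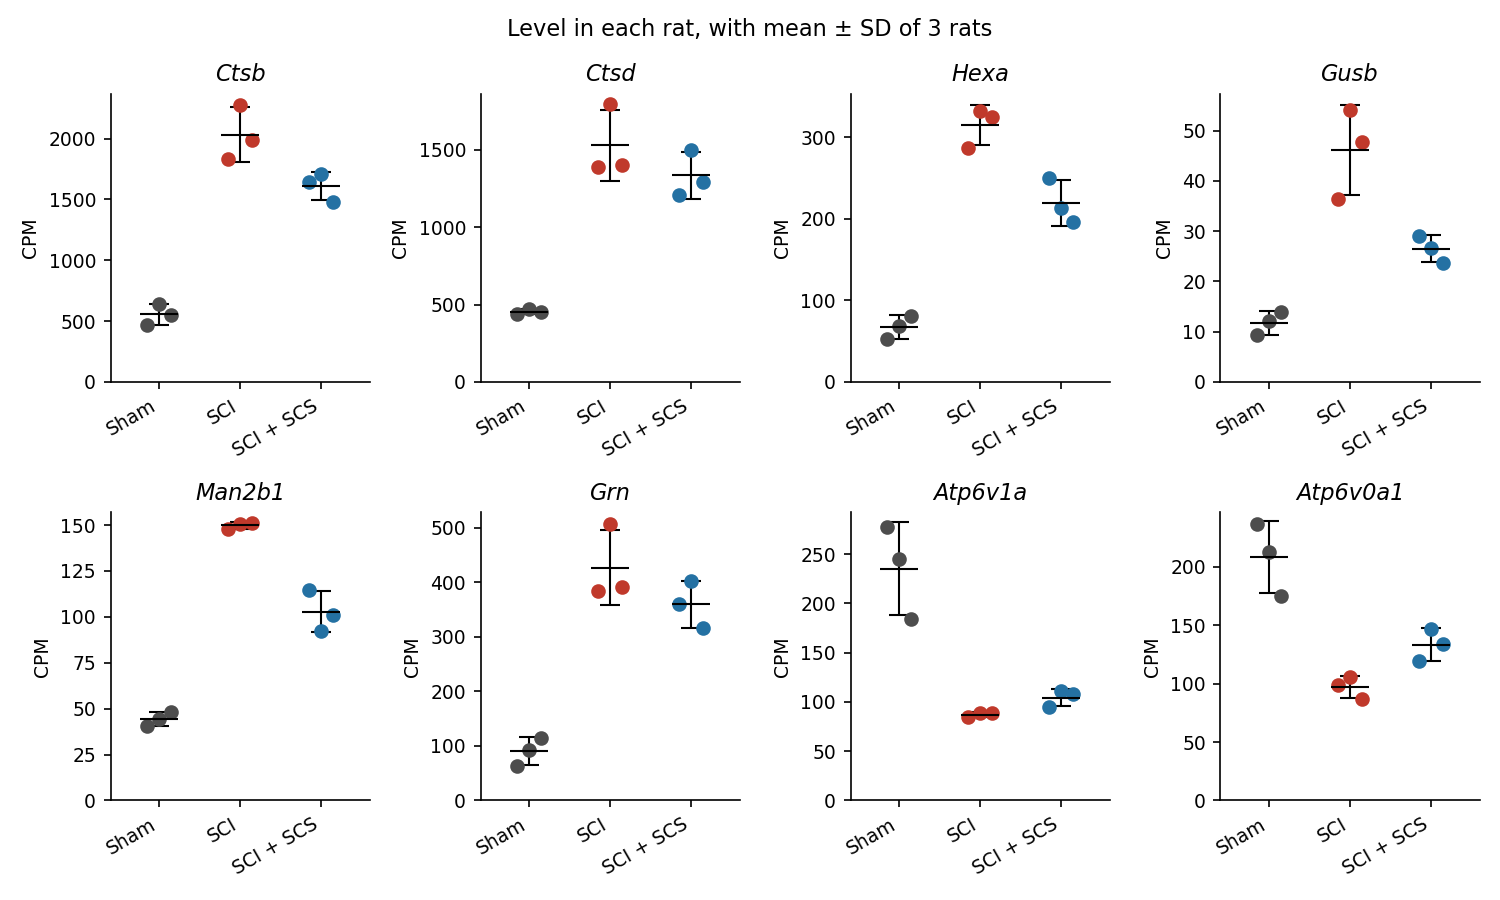
CPM (axes from 0) of 8 genes in each of the 9 rats, by group, with the mean ± SD of 3 rats. The SCI + SCS rats lie below the SCI rats for Ctsb, Hexa, Gusb and Man2b1, above them for Atp6v1a and Atp6v0a1, and overlap them for Ctsd and Grn.

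SCI + SCS was also set against Sham. Of the 40 genes, 19 passed as higher and 8 as lower in stimulated rats, against 16.2% in each direction over all 17640 rows. With |log2FC| above 1 added, 12 were higher and 1 lower, against 6.28% and 5.44% of all rows. The libraries did not overlap for 21 higher and 9 lower genes, against 27% and 26.2% of all rows. Ctsz (log2FC 1.91 ± 0.20 (SE), adjusted p = 0.00359), Grn (log2FC 2.01 ± 0.22 (SE), adjusted p = 0.00386) and Hexa (log2FC 1.71 ± 0.18 (SE), adjusted p = 0.00357) led the higher genes, and Atp6v1a (log2FC -1.17 ± 0.16 (SE), adjusted p = 0.00617), Scarb2 (log2FC -0.84 ± 0.18 (SE), adjusted p = 0.0174) and Atp6v1b2 (log2FC -0.80 ± 0.20 (SE), adjusted p = 0.0268) the lower ones. The 7 cysteine peptidases other than Ctsf and the 4 aspartic, serine and other peptidases passed as higher. Of these 11, Ctsc, Ctsh, Ctsl, Ctse and Tpp1 lost the call when replicate number was blocked (adjusted p from 0.0502 to 0.069), and Ctsc, Ctsl and Ctse also lost it without at least 1 library. Ppt1 passed as lower (log2FC -0.35 ± 0.093 (SE), adjusted p = 0.0321), but its call was lost without any 1 of the 6 libraries and with the block (adjusted p = 0.0945). Asah1 (log2FC 1.10 ± 0.41 (SE), adjusted p = 0.0811) and Mcoln1 (log2FC -0.22 ± 0.074 (SE), adjusted p = 0.0612) did not pass. DESeq2 called Asah1 higher (adjusted p = 0.0169) and Mcoln1 lower (adjusted p = 0.0212). With the rows of an identifier summed, Mcoln1 also passed as lower by edgeR (log2FC -0.33, adjusted p = 0.0273). A fit that blocked on replicate number kept 14 calls, 10 higher and 4 lower, against 4.04% and 3.1% of all rows in that fit. Besides the peptidases and Ppt1, it lost Tfeb, Idua, Ids, Lipa, Cln3, Atp6v0a1 and Atp6v1b2 (adjusted p from 0.0636 to 0.107). Without Sham replicate 2 the count was 17, beside 2149 of all 17927 rows, and without SCI + SCS replicate 1 it was 16, beside 2152 of all 17917 rows. By DESeq2 20 were higher and 9 lower, against 19.1% and 20.1% of its rows. In all, 16 of the 27 passed without each library in turn, and the other 11 were Atp6v0a1, Atp6v1b2, Cln3, Ctsc, Ctse, Ctsl, Ids, Idua, Lipa, Ppt1 and Scarb2.

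Other lysosomal genes were counted in 6 lists, of which 103 genes were tested in each comparison. In the SCI group 43 of them rose and 25 fell, against 24.3% and 25% of all rows, so that the share that fell lay near that of all rows. Among 30 further hydrolases 21 rose and 2 fell. The largest increases were those of Ctsw, a cathepsin of cytotoxic lymphocytes (log2FC 3.62 ± 0.50 (SE), adjusted p = 0.00254), and Ctsk, the collagen-degrading cathepsin of osteoclasts (log2FC 3.54 ± 0.52 (SE), adjusted p = 0.00296), and Hgsnat, an acetyltransferase of heparan sulfate breakdown, fell most (log2FC -0.79 ± 0.15 (SE), adjusted p = 0.00582). Of 27 further membrane proteins 13 rose and 8 fell. Gpnmb, a glycoprotein of phagocytes, rose from 8.69, 14.2 and 21.4 CPM to 832, 1420.4 and 1027 CPM (log2FC 6.20 ± 0.43 (SE), adjusted p = 0.000976).

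The further V-ATPase subunits, 18 in number, gave 3 that rose and 6 that fell. Both counts lay near the shares of all rows that rose and fell, 24.3% and 25%. Those that rose were Atp6v0e1, Tcirg1 and Atp6v0d2, an isoform of Atp6v0d1. Tcirg1, the macrophage and osteoclast counterpart of Atp6v0a1, was at 20.8, 24.5 and 29.7 CPM in the Sham rats, 103, 109.9 and 104 CPM in the SCI rats and 76.1, 73.3 and 69.4 CPM in the SCI + SCS rats (log2FC 2.06 ± 0.14 (SE), adjusted p = 0.000976). Atp6v0d2 had no count in any Sham library. It was at 8.84, 8.44 and 7.55 CPM in the SCI group and 3.59, 1.83 and 0.626 CPM in the SCI + SCS group. By library total before TMM, 3 counts in a Sham library stood for at most 0.0455 CPM. The largest decreases were those of Atp6v1g2, a subunit of neurons (log2FC -1.98 ± 0.40 (SE), adjusted p = 0.00786), and Atp6v0e2 (log2FC -1.17 ± 0.12 (SE), adjusted p = 0.00143).

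Of the 9 genes of protein sorting to the lysosome, 1 (Nagpa) rose and 4 fell, among them Sort1, the sorting receptor sortilin (log2FC -0.98 ± 0.13 (SE), adjusted p = 0.00215). Over all rows 24.3% rose and 25% fell, and the lists of this paragraph are small beside those shares. Of the 4 cystatins, which inhibit cysteine cathepsins, 3 rose, with log2FC of 4.28 for Cst7, 1.53 for Cstb and 1.31 for Cst3. Among 15 genes of related transcription factors and of mTORC1 recruitment to the lysosome, 2 rose and 5 fell, the largest being Tfec, a relative of TFEB (log2FC 2.75 ± 0.68 (SE), adjusted p = 0.0159). None of the 103 passed between SCI + SCS and SCI by edgeR, and at an unadjusted p under 0.05, 28 were lower and 7 higher in stimulated rats, against 10.9% and 13.3% of all rows. DESeq2 called 25 lower and 3 higher, against 6.9% and 8.83% of its rows. Ctsw (log2FC -2.33 ± 0.26 (SE), adjusted p = 0.0719) and Cst7 (log2FC -2.36 ± 0.29 (SE), adjusted p = 0.0719) had large negative values there. Against the Sham group, 38 passed as higher and 19 as lower, against 16.2% of all rows in each direction.

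Markers of the cell types in the cord were counted beside the lysosomal genes. Of 12 microglia and macrophage markers, 11 rose in the SCI group, against 24.3% of all rows, and Cx3cr1 did not pass (log2FC 0.52 ± 0.26 (SE), adjusted p = 0.133). Their summed level was 287 to 570 CPM in the Sham libraries, 1908 to 2468 CPM in the SCI libraries and 1660 to 1973 CPM in the SCI + SCS libraries, and no marker was at 0 in any library. Between SCI + SCS and SCI, none of the 12 passed, and 7 had a negative log2FC at an unadjusted p under 0.05, against 10.9% of all rows. The summed CPM of the 40 lysosomal genes was 14.7 to 27.2 times that of the macrophage markers in the Sham libraries, 5.21 to 6.83 times in the SCI libraries and 6.45 to 6.97 times in the SCI + SCS libraries. The lysosomal sum therefore grew less than the marker sum after injury, and the part of these cells in the lysosomal levels was not tested. Of the 10 oligodendrocyte markers 9 fell in the SCI group, and all 6 fibroblast markers rose, against 25% and 24.3% of all rows that fell and rose. Between SCI + SCS and SCI no marker of these types passed by edgeR. All 12 neuronal, all 7 astrocyte and all 10 oligodendrocyte markers had a positive log2FC, while the median over all rows was -0.0055. DESeq2 called 5, 4 and 4 of these markers higher, against 8.83% of its rows. All 6 fibroblast markers had a negative log2FC, and DESeq2 called 5 of them lower, against 6.9% of its rows. The summed level of the astrocyte markers was 6651 to 10384 CPM in the SCI libraries and 10205 to 13321 CPM in the SCI + SCS libraries, and that of the fibroblast markers was 3346 to 5052 CPM and 2058 to 3498 CPM. The oligodendrocyte markers summed to 18020 to 33649 CPM and 31247 to 37048 CPM. The part of these cell types in the lysosomal values of that comparison was not tested. Cysteine cathepsins and legumain took 0.123 to 0.164% of the counts in the Sham libraries, 0.389 to 0.511% in the SCI libraries and 0.351 to 0.409% in the SCI + SCS libraries, whereas the 4 V-ATPase subunits took 0.087 to 0.122%, 0.0629 to 0.067% and 0.0702 to 0.0794%.

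**Figure D5:**
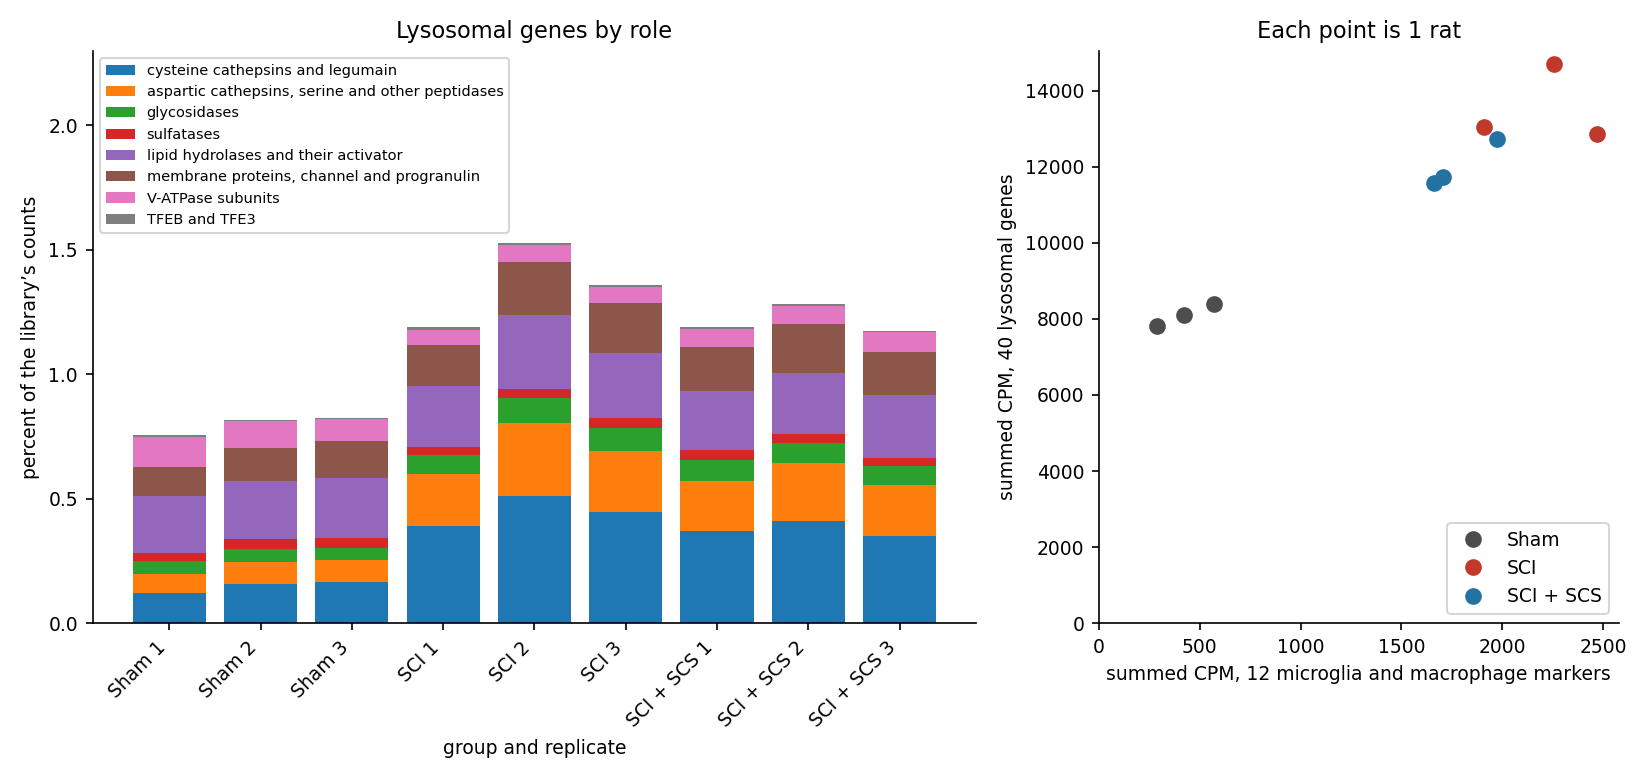
Left, percent of each library's counts on the 40 lysosomal genes, stacked by role, for the 9 rats. Right, summed CPM of the 40 genes against summed CPM of 12 microglia and macrophage markers, 1 point per rat and colored by group. The Sham bars reach 0.755 to 0.825% and the 6 injured bars 1.18 to 1.53%, and the SCI + SCS points lie between 1660 and 1973 CPM of markers.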

How the data were processed

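RNA-seq of spinal cord from 9 rats (3 in each of the 3 groups) was analysed. Libraries were grouped by the titles in the labels. Per the labels, oligo(dT) beads were used to enrich mRNA, and the submitters' processing notes name fastp 0.23.2, HISAT2 2.2.1 and mRatBN7.2. The counting program and its strand setting are not given in the sources used here. The authors deposited raw counts per gene, which were not normalized, and FPKM, a level scaled by length and library total. These FPKM are not the counts over 1 fixed length per gene. In Sham replicate 1, Asah1 had 36.8 CPM and 19.3 FPKM, and Psap 1888 CPM and 580 FPKM. In SCI replicate 1, Asah1 had 135 CPM and 43.0 FPKM, and Psap 2095 CPM and 591 FPKM.

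For each comparison, the counts of its 6 libraries were fitted by the quasi-likelihood method of edgeR 4.0.16 (R 4.3.3) after filterByExpr and TMM, with group as the only term. Benjamini-Hochberg adjustment covered all rows tested. A gene passed, or was called, at an adjusted p under 0.05. SE was obtained as |log2FC| over the root of the F statistic. CPM were normalized by TMM over 9 libraries. The study's methods name DESeq2 (here 1.42.0), which was an alternative, as was limma 3.58.1 on log2(FPKM + 1) and log2(FPKM + 0.1) for rows with a mean FPKM of at least 0.1, a scale that understates changes of low genes. Figures were drawn with matplotlib 3.10.9. The tests were also run on simulated counts in which few genes changed, unlike the comparisons with Sham, and no result here rests on that run. The p-values measure the spread between 3 rats per group.

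A level of 3 counts corresponded to 0.034 to 0.0477 CPM by library total before TMM. This floor covers counting error only, since reads were amplified and carry no molecular identifiers. No 2 libraries held identical values. The spans of 7 of the 40 genes overlap another row. The rule for named genes allowed each gene that passed, the 3 with the largest |log2FC| per role and up to 2 per direction in the other lists. Levels of members outside it are descriptions. Members and lists were chosen with earlier results of these data known.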

Additional observations from a re-analysis of the deposited data

How the results depend on the processing

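Over the alternatives, the number of the 40 lysosomal genes that passed between SCI and Sham was 26 to 31 of 40, except that adding |log2FC| above 1 left 18. Leaving out each library in turn gave 23 to 28. Between SCI + SCS and SCI, DESeq2 called 10 genes and an unadjusted p under 0.05 gave 12, while every other alternative, leaving out each library included, gave 0. Between SCI + SCS and Sham, adding |log2FC| above 1 left 13, the fit with the replicate block left 14, leaving out each library gave 16 to 27, and the other alternatives gave 26 to 30. The cause of these differences was not tested, apart from the added threshold, which can only remove genes. Same-numbered libraries share only a number. The correlations of their deviations from the group means were 0.14, -0.09 and 0.11 for SCI and Sham, -0.08, -0.04 and -0.11 for SCI + SCS and SCI, and -0.22, 0.01 and -0.21 for SCI + SCS and Sham, and not every library correlated best with its own number. With it, 28 genes passed after injury and 0 between the injured groups. Of the values given for single genes, Atp6v0d1 (SCI against Sham, log2FC -0.029 to 0.12) and Ctss (SCI + SCS against SCI, -0.077 to 0.18) changed sign when a library was left out, and neither had passed. With 3 rats per group, the 95% interval of the log2FC between SCI + SCS and SCI included 0 for 28 of the 40 genes.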
